A study of Mus musculus with 12 samples.

Results

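Genes through which the tumour suppressor p53 stops the cell cycle, and through which it is itself switched off again, were followed in primary mouse embryonic fibroblasts with and without the retinoblastoma gene Rb. Of 10 genes named for this set, 9 had at least 1 probe set that the platform annotation assigns to that gene alone: Mdm2, Ppm1d, Ccng1, Cdkn1a, Btg2, Gadd45a, Sesn1, Sesn2 and Zmat3. Trp53, the gene of p53 itself, is not analysed here. The 9 genes had 17 probe sets of the 22690 on the array, and are 9 of 12393 genes with a probe set of their own. A probe set is a group of short oligonucleotides on the array that read 1 transcript or a few. 2 probe sets of Sesn1 fell below the filter on low signal, so 15 member probe sets were among the 13575 tested, and each of the 9 genes was tested through its brightest probe set, its representative.

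The fibroblasts came from day 13.5 mouse embryos and were at passage 2. The 4 groups were Rb null fibroblasts treated with 16 µM cisplatin for 24 h, wildtype fibroblasts with the same treatment, untreated Rb null fibroblasts and untreated wildtype fibroblasts. Cisplatin is a platinum compound that crosslinks DNA. Each group was 1 RNA sample hybridized to 3 Affymetrix arrays from 6 µg of total RNA, so all p-values below measure the spread between arrays of 1 RNA sample, and the spread between cultures was not measured. The Rb null cells are labelled Rb-/-, and the labels give neither how that allele was made nor how many embryos a culture came from.

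p53 is a transcription factor that is stabilised when DNA is damaged. It then switches on genes that arrest the cell cycle, such as Cdkn1a, and genes that limit p53 again, such as Mdm2, whose product marks p53 for destruction. In fibroblasts the product of Cdkn1a, p21, inhibits the cyclin-dependent kinases that phosphorylate the Rb protein, so Rb acts downstream of p53 in this arrest.

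Facts of the whole data set that touch the comparisons are as follows. The Rb1 probe set read 102.5, 74 and 92.4 on the cisplatin Rb null arrays, against 452.1, 344.4 and 352.2 on the cisplatin wildtype arrays. Untreated, it read 104.9, 91.7 and 85.3 in Rb null cells, against 419.9, 471.8 and 487.5 in wildtype cells. The annotation used here does not place it relative to the altered part of the gene, which the labels do not describe. The untreated wildtype sample stood apart in sex-linked transcripts: Xist averaged 132 there, whereas the remaining group means were 2379 to 3443. Eif2s3y, on the Y chromosome, averaged 478 there and 1.27 to 6.63 elsewhere. The untreated wildtype sample enters the untreated genotype comparison, the wildtype cisplatin comparison and the difference between cisplatin effects. Fibroblast markers were present in all groups, and the summed signal of 11 of them, all above the filter, was 45843 to 46814 in cisplatin Rb null, 59880 to 62885 in cisplatin wildtype, 75248 to 77584 in untreated Rb null and 81502 to 86427 in untreated wildtype arrays. Markers of macrophages and other leukocytes, 13 of 13 above the filter, summed to 6017 to 6315 in cisplatin Rb null, 11598 to 12189 in cisplatin wildtype, 7635 to 7948 in untreated Rb null and 5689 to 6031 in untreated wildtype arrays. These sums weigh bright markers most, and single markers did not all follow them. In Rb null cells C1qa averaged 104 with cisplatin against 499 untreated, whereas Cd14 averaged 1712 against 684. Only 2 of 6 epithelial and 1 of 5 endothelial markers passed the filter. The part of these differences in the results below was not tested. In RNA from whole cultures, fewer cells of a type and less RNA per cell cannot be told apart.

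p53 binds DNA at sites built of paired half-sites. The stretch before the start of a gene was therefore searched for the 10-base p53 half-site consensus, which reads the same on both strands. It was the only motif searched, alone and in pairs. The sequences are RefSeq windows on GRCm38.p6, each with 250 bases before the start and 50 after it. 8 of the 9 genes matched, with 10 windows. A half-site stood in 6 of the 10 windows, each of a different gene, and in 8.36% of the 32851 windows of all genes. A pair of half-sites with at most 13 bases between them stood in 1 member window, that at the first start of Cdkn1a, with 12 bases between, and in 0.0731% of all windows. The 6 stretches with a half-site are printed to show how the members differ in this part of the promoter, with the half-sites in capitals and each on the strand of the gene.
Mdm2, chr10:117710910-117710969, minus strand: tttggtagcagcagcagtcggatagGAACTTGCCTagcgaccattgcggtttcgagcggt
Ppm1d, chr11:85311097-85311156, plus strand: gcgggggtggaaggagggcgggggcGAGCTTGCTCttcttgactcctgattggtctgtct
Ccng1, chr11:40755437-40755496, minus strand: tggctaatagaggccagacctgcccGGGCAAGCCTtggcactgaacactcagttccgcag
Cdkn1a, chr17:29090881-29090962, plus strand: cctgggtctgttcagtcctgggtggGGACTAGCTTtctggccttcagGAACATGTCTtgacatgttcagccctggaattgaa
Gadd45a, chr6:67037413-67037472, minus strand: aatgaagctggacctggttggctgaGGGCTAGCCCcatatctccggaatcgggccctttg
Sesn1, at its second start, chr10:41887241-41887300, plus strand: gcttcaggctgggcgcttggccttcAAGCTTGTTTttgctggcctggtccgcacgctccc
The half-sites began 186 bases before the start of Mdm2, 185 before that of Ccng1, 132 before that of Ppm1d and 40 before that of Gadd45a. In Cdkn1a they began 73 and 51 bases before the first start, and in Sesn1 173 bases before the second start. The windows of Btg2 and Sesn2, a further window of Cdkn1a and the first of Sesn1 held none of these letters. Only exact matches were searched for, so a stretch that differs from the consensus by 1 letter is not in capitals. In Cdkn1a the 10 bases that directly follow the second marked half-site differ from the consensus in their first letter only. A match is a description of the sequence and not a measured binding site.

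Whether the set responded to cisplatin was asked first within each genotype. In Rb null cells 6 of the 9 genes rose and 0 fell, and in wildtype cells 5 rose and 0 fell. Mdm2, Ppm1d, Ccng1 and Btg2 rose in both genotypes. Gadd45a and Sesn1 were called in Rb null cells alone and Sesn2 in wildtype cells alone, on their representative probe sets. A gene was called, and is said to have risen or fallen, at a Benjamini-Hochberg adjusted p under 0.05 (limma, over all 13575 probe sets) together with a change of at least 1.5-fold. Of all 7909 genes tested in the same way, 16.6% rose and 20.3% fell with cisplatin in Rb null cells, and 14.8% rose and 12.7% fell in wildtype cells. The median log2 change of the members was 0.89 in Rb null and 0.74 in wildtype cells, beside -0.02 and 0.04 for all probe sets. Centring each array on its median, in place of the scale of the deposited values, takes away a shift of -0.146 from the Rb null comparison. It raised the members called there to 7, by adding Cdkn1a, and left the 5 in wildtype cells.

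**Figure D1:**
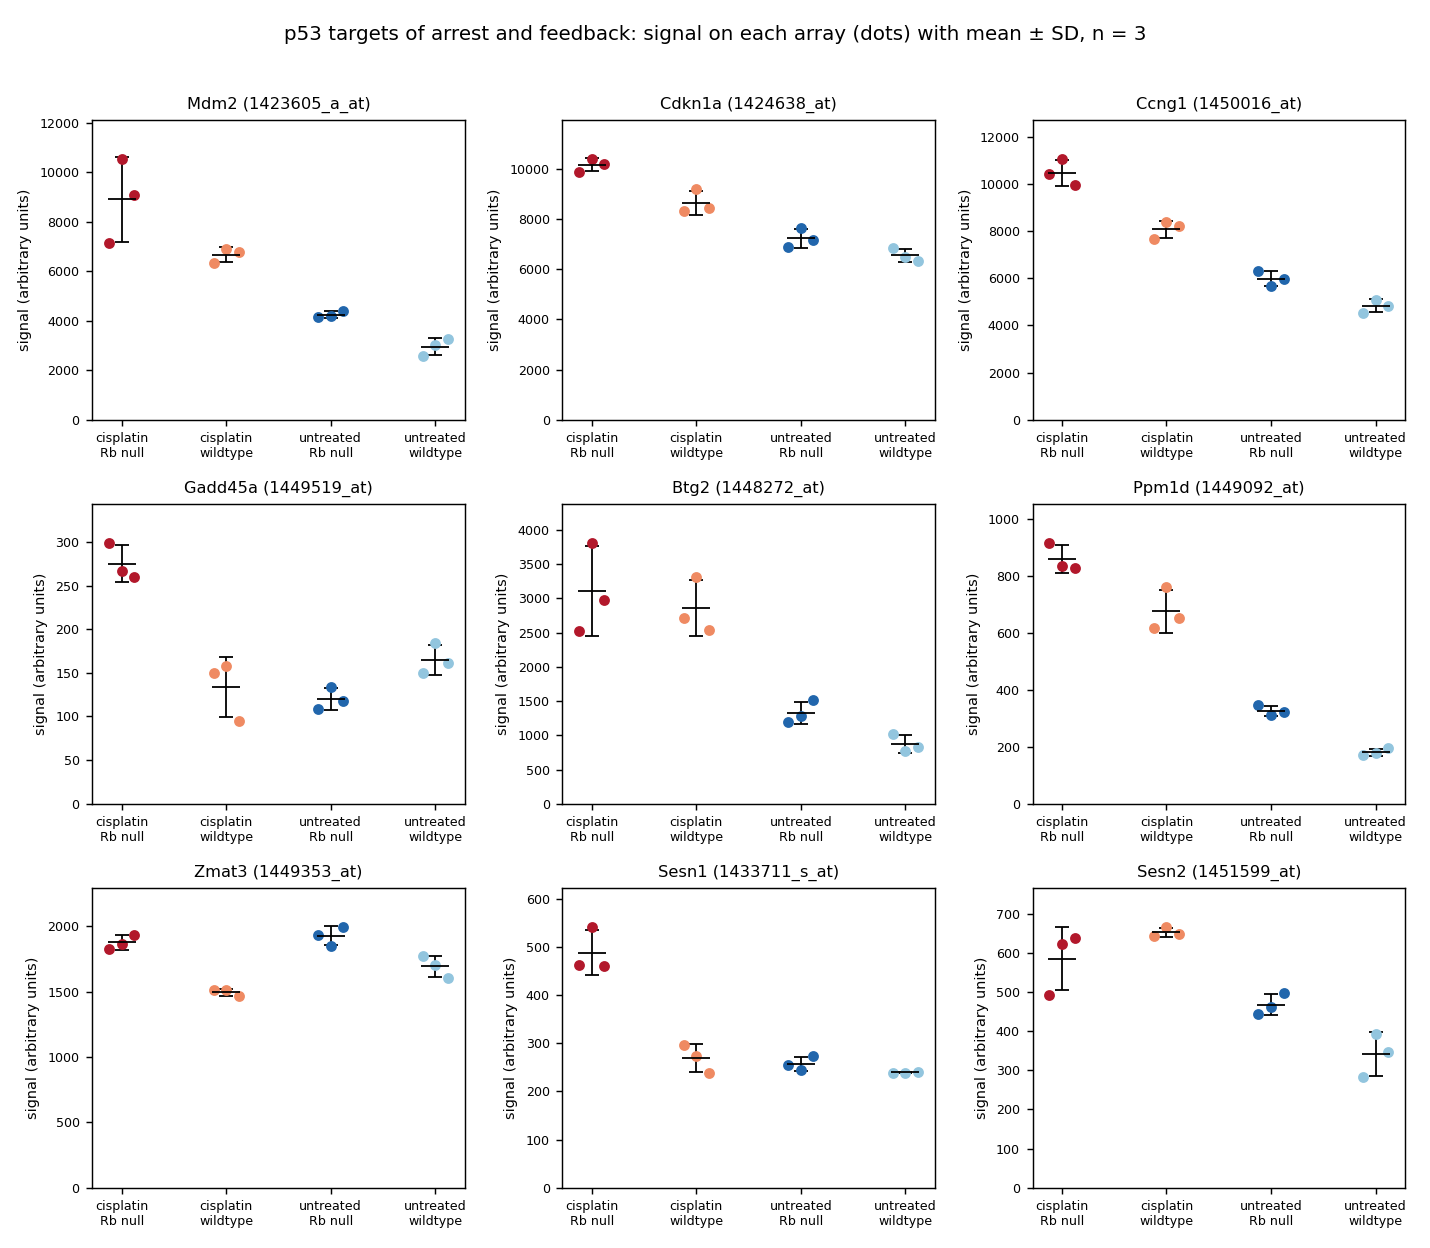
Deposited signal (arbitrary units, linear axis that starts at 0) for the representative probe set of each of the 9 genes, by group, with 1 point per array and lines at the mean ± SD of the 3 arrays of a group. All 3 arrays of either cisplatin group lie above all 3 untreated arrays of the same genotype for Mdm2, Cdkn1a, Ccng1, Btg2 and Ppm1d, whereas Zmat3 stays between 1463 and 1995 on all 12 arrays. The share of all genes whose arrays separate in this way was not counted.

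Mdm2 (chr10:117688875-117710758 on GRCm38.p6, as are the other positions), the ubiquitin ligase that degrades p53, rose in both genotypes. Its representative probe set read 7121, 10532 and 9068 on the cisplatin Rb null arrays, against 4150, 4173 and 4397 on the untreated Rb null arrays. In wildtype cells it read 6342, 6882 and 6788 with cisplatin, against 2569, 3010 and 3276 untreated. The lowest treated array was above the highest untreated one in each genotype, and the Rb null treated arrays were the most scattered. The log2 change was 1.05 ± 0.11 (standard error, 2.07-fold, adjusted p = 1.45e-06 by limma) in Rb null cells and 1.18 ± 0.11 (2.27-fold, adjusted p = 6.54e-07) in wildtype cells. A second probe set moved the same way, by 2.43-fold in Rb null and 2.76-fold in wildtype cells.

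Ppm1d (chr11:85311254-85347071), whose product Wip1 is a phosphatase that removes activating phosphates from p53 and from damage kinases, had the largest wildtype change among the 9 representative probe sets. It read 917, 835 and 828 on the cisplatin Rb null arrays, against 346, 311 and 324 on the untreated Rb null arrays. In wildtype cells the readings were 617, 763 and 652 with cisplatin, against 170, 178 and 195 untreated. Treated and untreated arrays did not overlap in either genotype, and the 2 untreated groups were themselves apart, Rb null above wildtype. It rose by 1.37 ± 0.10 (log2, 2.58-fold, adjusted p = 1.57e-08 by limma) in Rb null cells and by 1.84 ± 0.10 (3.58-fold, adjusted p = 1.01e-09) in wildtype cells.

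Ccng1 (chr11:40748552-40755309) encodes cyclin G1, which recruits a phosphatase subunit to Mdm2. Its representative probe set read 10404, 11060 and 9960 on the cisplatin Rb null arrays, against 6301, 5665 and 5983 untreated, and 7679, 8363 and 8205 on the cisplatin wildtype arrays, against 4545, 5094 and 4835 untreated. The 4 groups did not overlap. The rise was 0.81 ± 0.06 (log2, 1.75-fold, adjusted p = 3.1e-08 by limma) in Rb null and 0.74 ± 0.06 (1.68-fold, adjusted p = 1.14e-07) in wildtype cells. The other 2 probe sets gave smaller values in wildtype cells. One rose by 0.87 in Rb null cells and differed by 0.49 in wildtype cells (adjusted p = 4.72e-05, under 1.5-fold). The other differed by 0.53 (adjusted p = 1.68e-06, under 1.5-fold) in Rb null and by 0.11 (adjusted p = 0.128) in wildtype cells. All 3 probe sets carry the same source sequence accession in the annotation, and the cause of their differences was not tested.

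Cdkn1a (chr17:29090979-29100722), the gene of the kinase inhibitor p21, gave different answers on its 2 probe sets. The brighter one, its representative, is at the 99.3rd percentile of mean signal. It read 9887, 10399 and 10204 on the cisplatin Rb null arrays, against 6893, 7649 and 7161 untreated, and 8304, 9202 and 8438 on the cisplatin wildtype arrays, against 6842, 6491 and 6318 untreated. All treated arrays were above all untreated arrays, but the differences of 0.49 ± 0.06 in Rb null (log2, 1.41-fold, adjusted p = 2.28e-06 by limma) and 0.40 ± 0.06 in wildtype cells (1.32-fold, adjusted p = 2.68e-05) were under 1.5-fold and so not called. With arrays centred on their medians the Rb null value was 0.64 and was called.

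The second Cdkn1a probe set, at the 89.8th percentile, read 2324, 2312 and 2384 on the cisplatin Rb null arrays, against 732, 804 and 975 untreated. On the wildtype arrays it read 3334, 3623 and 3985 with cisplatin, against 739, 754 and 599 untreated. On this probe set the treated wildtype arrays were the highest of the 12, whereas on the brighter one the treated Rb null arrays were. It rose by 1.48 ± 0.11 (log2, 2.79-fold, adjusted p = 2.2e-08 by limma) in Rb null and by 2.37 ± 0.11 (5.18-fold, adjusted p = 2.35e-10) in wildtype cells. Both probe sets were thus higher with cisplatin in both genotypes, with sizes that differ by more than their errors, and which of them follows p21 mRNA more closely was not tested.

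Btg2 (chr1:134074865-134079155), an antiproliferative gene whose product recruits the machinery that shortens mRNA tails, rose in both genotypes. Its representative probe set read 2516, 3809 and 2982 on the cisplatin Rb null arrays, against 1190, 1285 and 1510 untreated. In wildtype cells it read 2719, 3318 and 2543 with cisplatin, against 1014, 767 and 823 untreated. The treated arrays of both genotypes overlapped each other and were above every untreated array. The change was 1.20 ± 0.15 (log2, 2.30-fold, adjusted p = 5.3e-06 by limma) in Rb null and 1.71 ± 0.15 (3.27-fold, adjusted p = 2.05e-07) in wildtype cells, and its other probe set gave 1.63 and 1.86 in the same order of genotypes.

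Gadd45a (chr6:67035096-67037407), whose product binds stress kinases and the mitotic kinase complex, was one of the weaker members, at the 48.9th percentile of mean signal. It read 299, 266 and 260 on the cisplatin Rb null arrays, against 108, 133 and 118 untreated. On the wildtype arrays it read 149, 158 and 94.3 with cisplatin, against 150, 184 and 161 untreated. The 3 treated Rb null arrays were the highest of the 12, and the wildtype arrays overlapped between treatments. It rose by 1.13 ± 0.17 (log2, 2.20-fold, adjusted p = 4.35e-05 by limma) in Rb null cells, against a difference of -0.31 ± 0.17 (adjusted p = 0.145) in wildtype cells.

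The sestrins Sesn1 and Sesn2 restrain the growth kinase mTORC1 under stress and lower peroxides. Sesn1 (chr10:41810574-41908436) read 461, 541 and 460 on the cisplatin Rb null arrays, against 254, 245 and 273 untreated, and 297, 274 and 239 on the cisplatin wildtype arrays, against 239, 238 and 241 untreated. Only the treated Rb null arrays stood clear of the rest. The gene rose by 0.89 ± 0.10 (log2, 1.86-fold, adjusted p = 3.3e-06 by limma) in Rb null cells, against 0.16 ± 0.10 (adjusted p = 0.213) in wildtype cells. The suffix of this probe set marks probes that can match more than 1 transcript. A more specific Sesn1 probe set below the filter read 182, 135 and 178 on the cisplatin Rb null arrays, against 66.1, 63.4 and 61.8 untreated, and 53.4 to 68.8 on the cisplatin wildtype arrays, against 51.2 to 64.8 untreated. In the fit without a filter it rose by 1.23 in Rb null cells (adjusted p = 0.000105), against 0.09 in wildtype cells (adjusted p = 0.772). The third Sesn1 probe set read 44.2 to 126.6 over all arrays and overlapped in every comparison.

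Sesn2 (chr4:132492804-132510456) rose in wildtype cells on both of its probe sets, and in Rb null cells on 1 of them. The representative read 493, 624 and 638 on the cisplatin Rb null arrays, against 444, 463 and 497 untreated. In wildtype cells it read 643, 666 and 648 with cisplatin, against 283, 394 and 347 untreated. The lowest treated Rb null array lay within the untreated Rb null range, and the wildtype groups were far apart. The log2 difference was 0.31 ± 0.12 in Rb null cells (adjusted p = 0.036 by limma, under 1.5-fold) and the rise 0.93 ± 0.12 in wildtype cells (1.90-fold, adjusted p = 1.36e-05). The other probe set read 553, 592 and 548 on the cisplatin Rb null arrays, against 287, 272 and 265 untreated, a rise of 1.01 ± 0.09 (2.02-fold, adjusted p = 2.21e-07). In wildtype cells it read 460, 406 and 446 with cisplatin, against 210, 216 and 245 untreated, a rise of 0.94 ± 0.09 (adjusted p = 7.73e-07). The statement that Sesn2 was called in wildtype cells alone therefore holds for the representative and not for this probe set.

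Zmat3 (chr3:32334792-32365665), also called Wig1, encodes a zinc finger protein that binds RNA. It read 1829, 1866 and 1935 on the cisplatin Rb null arrays, against 1935, 1853 and 1995 untreated. On the wildtype arrays it read 1512, 1512 and 1463 with cisplatin, against 1769, 1707 and 1608 untreated. Neither genotype passed the fold minimum: the difference was -0.04 ± 0.06 (log2, adjusted p = 0.602 by limma) in Rb null cells, where centring on the median turned it to 0.11, and -0.18 ± 0.06 (adjusted p = 0.0228, 1.13-fold lower) in wildtype cells.

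**Figure D2:**
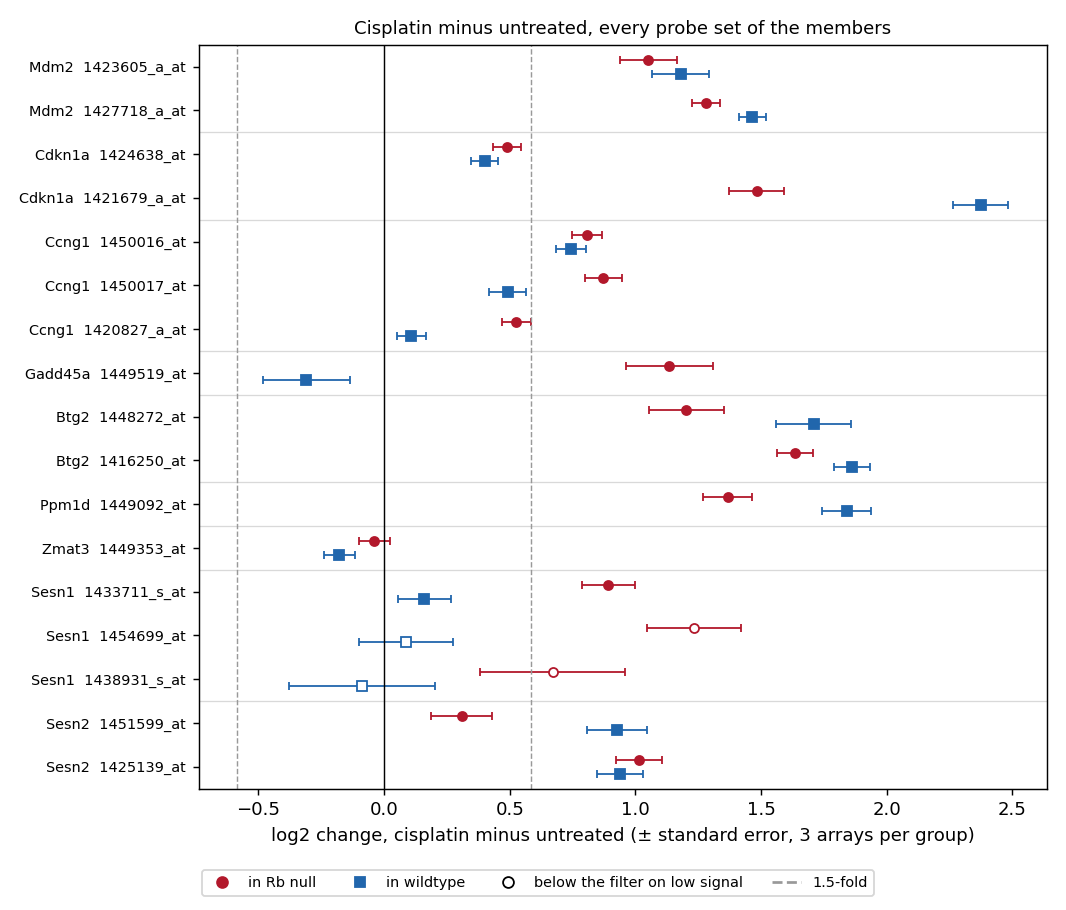
Log2 change with cisplatin (x axis, with bars of 1 standard error) for each of the 17 probe sets, in Rb null and in wildtype cells, with open symbols below the filter on low signal and dashed lines at 1.5-fold. The 2 Cdkn1a probe sets lie at 0.49 and 1.48 in Rb null cells and at 0.40 and 2.37 in wildtype cells, and Gadd45a and Sesn1 separate the genotypes.

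The next question was whether the response to cisplatin differed between genotypes, tested as the cisplatin effect in Rb null cells minus that in wildtype cells. On representative probe sets 3 of 9 members differed, with Gadd45a and Sesn1 higher and Sesn2 lower in the Rb null response. Of all 7909 genes, 23.7% differed in either direction, so the members' share is near that background. Gadd45a differed by 1.44 ± 0.24 (log2, adjusted p = 0.000366 by limma) and Sesn1 by 0.73 ± 0.15 (adjusted p = 0.00146). The specific Sesn1 probe set below the filter differed by 1.14 ± 0.26 (adjusted p = 0.00683). For Gadd45a, a gap of -0.43 in untreated cells, where Rb null was the lower group (adjusted p = 0.0691), adds to the difference.

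Sesn2 differed by -0.62 ± 0.17 (adjusted p = 0.0107 by limma) on its representative and by 0.08 ± 0.13 (adjusted p = 0.684) on its other probe set. The first value passed the 1.5-fold minimum narrowly and was not called after quantile normalization (-0.54), after centring on the median (-0.52), with the larger pseudocount (-0.57), or without untreated Rb null array 3 (-0.58), untreated wildtype array 1 (-0.49) or cisplatin Rb null array a (-0.50). Cdkn1a differed by 0.09 ± 0.08 (adjusted p = 0.391) on its representative, turning to -0.15 after quantile normalization, and by -0.89 ± 0.15 (adjusted p = 0.000422) on the second probe set, which was called. The response of Cdkn1a on that second probe set was thus 1.86-fold smaller in Rb null cells.

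The remaining members were not called for the difference. Mdm2 differed by -0.13 ± 0.16 (adjusted p = 0.567 by limma) and Btg2 by -0.51 ± 0.21 (adjusted p = 0.0719). The Btg2 value was called without untreated wildtype array 1 (-0.62, adjusted p = 0.0338) and without cisplatin Rb null array b (-0.66, adjusted p = 0.0152). The other Btg2 probe set gave a smaller value of -0.23 ± 0.10 (adjusted p = 0.0952 by limma). Ppm1d differed by -0.47 ± 0.14 (adjusted p = 0.0144), below the fold minimum. For Ccng1 the representative gave 0.06 ± 0.09 (adjusted p = 0.601), whereas its other 2 probe sets gave 0.38 (adjusted p = 0.00941) and 0.42 (adjusted p = 0.00115), both under 1.5-fold. Zmat3 differed by 0.14 ± 0.09 (adjusted p = 0.223). For Ppm1d and Btg2 the untreated level was already higher in Rb null cells, as given next. The untreated wildtype sample that stood apart in Xist enters all of these differences, and the leukocyte marker sums were lower with cisplatin than untreated in Rb null cells (6017 to 6315 against 7635 to 7948) and higher in wildtype cells (11598 to 12189 against 5689 to 6031). Of the 13 leukocyte markers 9 fell and 2 rose with cisplatin in Rb null cells, where 20.3% of all genes fell and 16.6% rose. In wildtype cells 0 fell and 5 rose, where 12.7% fell and 14.8% rose. The part of the untreated wildtype sample or of the leukocyte markers in the differences was not tested.

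Levels in Rb null and wildtype cells were compared within each treatment. In untreated cells 2 of 9 members, Ppm1d and Btg2, were higher in Rb null cells and 0 were lower, against 8.09% of all genes that were higher and 5.04% that were lower. After cisplatin, 2 of 9, Gadd45a and Sesn1, were higher on representative probe sets and 0 lower, against 9.71% of all genes higher and 13.3% lower. Many members differed by less than 1.5-fold in the same direction. With no fold minimum 6 of 9 were higher in untreated Rb null cells on representative probe sets, where 18.8% of all genes were. After cisplatin 7 of 9 were, where 23% of all genes were. The 6 include Ccng1 and the 7 include Cdkn1a, whose other probe sets did not show the same, as given below. Median log2 differences of the members were 0.34 after cisplatin and 0.31 untreated, beside -0.04 and 0.00 for all probe sets. The untreated comparison sets cultures against each other that differ in sex-linked transcripts, while both cisplatin groups expressed Xist, at averages of 3443 in Rb null and 2379 in wildtype cells.

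Ppm1d was 1.76-fold higher in untreated Rb null cells (log2 0.82 ± 0.10, adjusted p = 1.39e-05 by limma), with its 3 arrays at 311 to 346, against 170 to 195 in wildtype cells. After cisplatin the gap was 0.34 ± 0.10 (adjusted p = 0.00852), under the fold minimum. Btg2 was 1.53-fold higher in untreated Rb null cells (0.61 ± 0.15, adjusted p = 0.00525). That call lies at the fold minimum: it was lost after centring on the median (0.58), without untreated Rb null array 3 (0.52), without untreated wildtype array 2 (0.53) and without untreated wildtype array 3 (0.58), and the other Btg2 probe set gave 0.34. After cisplatin Btg2 differed by 0.11 ± 0.15 (adjusted p = 0.583), with overlapping arrays.

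Mdm2 was higher on all 3 Rb null arrays than on all 3 wildtype arrays in both treatments, by 0.40 ± 0.11 after cisplatin (adjusted p = 0.00921 by limma) and 0.53 ± 0.11 untreated (adjusted p = 0.00243). Ccng1 showed 0.37 ± 0.06 after cisplatin (adjusted p = 0.000152) and 0.31 ± 0.06 untreated (adjusted p = 0.00119) on its representative. Its other probe sets gave 0.33 and 0.50 after cisplatin. Untreated, they gave -0.09 (adjusted p = 0.286 by limma) and 0.12 (adjusted p = 0.248), so the untreated difference of Ccng1 holds for the representative only. Both genes stayed under the 1.5-fold minimum, except that the untreated difference of Mdm2 was called without untreated wildtype array 3 (0.61). Zmat3, which did not pass the fold minimum with cisplatin, was 0.32 ± 0.06 higher in Rb null cells after cisplatin (adjusted p = 0.000477) and 0.18 ± 0.06 untreated (adjusted p = 0.0298), again under 1.5-fold.

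Gadd45a was 2.02-fold higher in cisplatin Rb null than in cisplatin wildtype cells (1.01 ± 0.17, adjusted p = 0.000219 by limma), and Sesn1 1.78-fold higher (0.83 ± 0.10, adjusted p = 1.55e-05). Untreated, Gadd45a differed by -0.43 ± 0.17 (adjusted p = 0.0691) and Sesn1 by 0.10 ± 0.10 (adjusted p = 0.522). Sesn2 differed after cisplatin by -0.16 ± 0.12 (adjusted p = 0.276) on its representative and by 0.36 ± 0.09 (adjusted p = 0.00444, under 1.5-fold) on its other probe set. Untreated, the representative differed by 0.45 ± 0.12 (adjusted p = 0.00925, under 1.5-fold).

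For Cdkn1a the direction of the genotype difference after cisplatin depended on the probe set. The brighter one was 0.23 ± 0.06 higher in Rb null cells (1.18-fold, adjusted p = 0.00284 by limma), with arrays at 9887 to 10399, against 8304 to 9202 in wildtype cells. The other was 1.55-fold lower in Rb null cells (-0.63 ± 0.11, adjusted p = 0.000227, called), with arrays at 2312 to 2384, against 3334 to 3985. Untreated, the 2 probe sets gave 0.14 ± 0.06 (adjusted p = 0.0623) and 0.26 ± 0.11 (adjusted p = 0.0835). No direction of the Cdkn1a genotype difference after cisplatin can be given from these arrays without choosing between the probe sets.

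**Figure D3:**
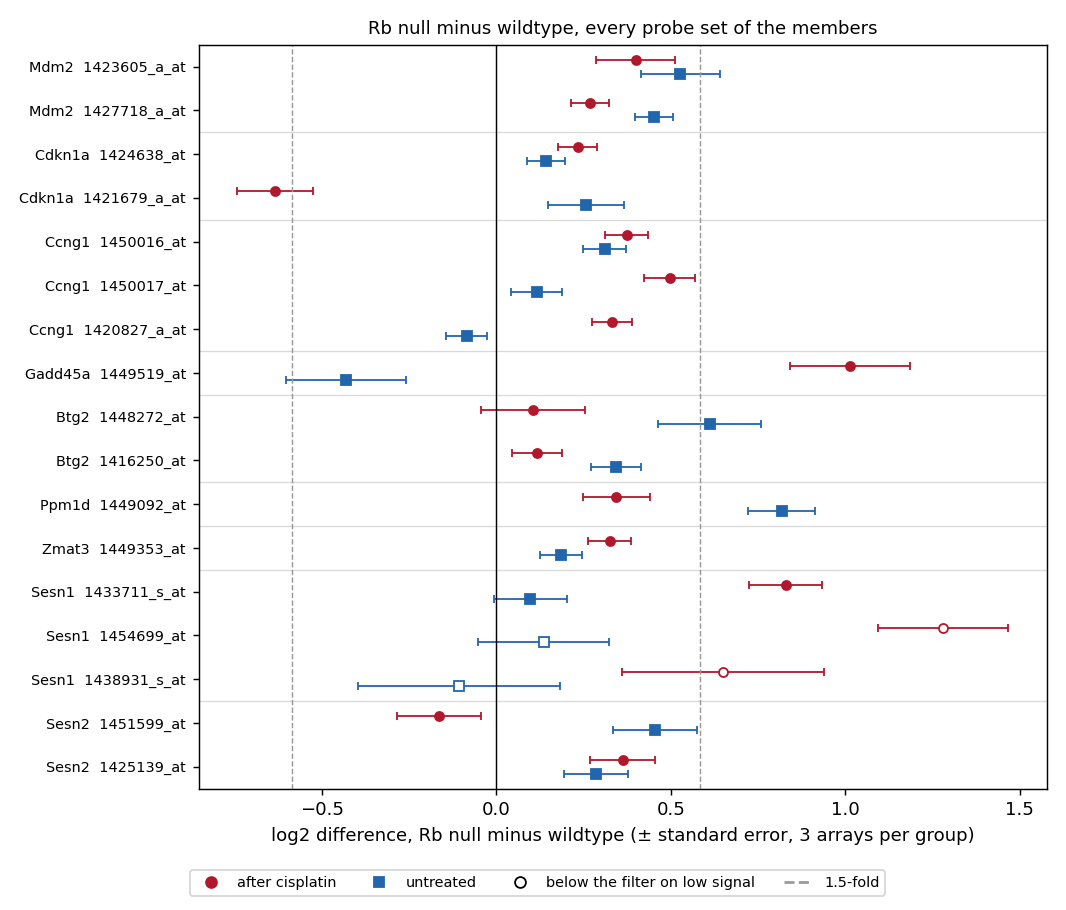
Log2 difference, Rb null minus wildtype cells (x axis, with bars of 1 standard error), for each of the 17 probe sets, after cisplatin and untreated, with open symbols below the filter on low signal and dashed lines at 1.5-fold. After cisplatin Gadd45a lies at 1.01 and the representative of Sesn1 at 0.83, and the 2 probe sets of Cdkn1a lie at 0.23 and -0.63.

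Ordered by mean signal of the representative probe set, cisplatin Rb null came first, then cisplatin wildtype, untreated Rb null and untreated wildtype, for Mdm2, Ppm1d, Ccng1, Cdkn1a, Btg2 and Sesn1. Neighbouring groups in that order did not overlap for Mdm2, Ppm1d, Ccng1 and Cdkn1a. The share of all genes whose groups separate in this way was not counted. On the second Cdkn1a probe set the cisplatin groups stood the other way, with wildtype at 3334 to 3985 and Rb null at 2312 to 2384. For Btg2 the cisplatin groups overlapped, and for Sesn1 cisplatin wildtype overlapped untreated Rb null. Sesn2 had cisplatin wildtype on top, overlapping no other group, and Gadd45a had cisplatin Rb null alone on top, with wildtype groups overlapping each other and cisplatin wildtype overlapping untreated Rb null. Zmat3 was ordered by genotype, with untreated and cisplatin Rb null overlapping above untreated wildtype and then cisplatin wildtype.

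Across the 12 arrays, which fall into 4 groups of 3 hybridizations of the same RNA, the log2 signals of Mdm2, Ppm1d and Ccng1 moved together, with Pearson r of 0.975 between Mdm2 and Ccng1, 0.975 between Ccng1 and Ppm1d and 0.965 between Mdm2 and Ppm1d. Btg2 and Cdkn1a moved with them nearly as closely, at r of 0.928 to 0.959 for Btg2 and 0.944 to 0.959 for Cdkn1a. Zmat3 had r between -0.226 and 0.378 with the other members. Among all tested genes but those with provisional symbols, the pattern of Mdm2 was most like those of Prpf8 (r = 0.9844), Zfp36l1 (0.984) and Cdo1 (0.9833). Closest to Cdkn1a, on its brighter probe set, were Smpdl3b (0.9865), Ada (0.9842) and Mcts2 (0.983), and closest to Ccng1 were Ak1 (0.9906), Gpn3 (0.9902) and Zfyve21 (0.9895). Smpdl3b averaged 1099 in cisplatin Rb null and 427 in cisplatin wildtype cells, against 104 in untreated Rb null and 68.2 in untreated wildtype cells. These values describe the likeness over 4 groups only.

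Genes that act on p53 were set beside its targets. Among 14 tested regulators of p53, cisplatin raised 6 and lowered 4 in Rb null cells and raised 5 and lowered 2 in wildtype cells, with median log2 changes of 0.27 and 0.33. Over all genes 16.6% rose and 20.3% fell in Rb null cells, and 14.8% rose and 12.7% fell in wildtype cells, so the falls are near those shares. Pml, whose nuclear bodies hold p53 and its modifying enzymes, rose by 1.79-fold in Rb null cells, to 1757 against 977, and by 3.19-fold in wildtype cells, to 1337 against 413. Sirt1, a deacetylase of p53, rose by 3.19-fold in Rb null cells (733 against 222 untreated), and Atm, the kinase of the damage response, by 2.54-fold in wildtype cells (261 against 96.9). In the other genotype Sirt1 averaged 352 against 137 (wildtype) and Atm 228 against 160 (Rb null), so both were higher with cisplatin there too. Hipk2, a kinase that activates p53, fell in both genotypes, to 136 against 690 in Rb null cells and to 246 against 750 in wildtype cells. Atr, the kinase that senses stalled replication, also fell, by 1.98-fold in Rb null and 2.36-fold in wildtype cells. Between genotypes 4 of the 14 were higher and 4 lower in Rb null cells after cisplatin, beside 9.71% and 13.3% of all genes, with Sirt1 (733 against 352) and Chek1 (499 against 256) higher and Twist1 (254 against 582) and Trp53bp1 (478 against 966) lower. Untreated, 4 were higher in Rb null cells and 0 lower, beside 8.09% and 5.04% of all genes, among them Pml (977 against 413) and Chek1 (317 against 147).

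Targets of p53 that promote cell death were read next. Of 13 tested, 8 rose with cisplatin in Rb null cells and 9 in wildtype cells, and 0 fell in either. Of all genes 16.6% and 14.8% rose, and 20.3% and 12.7% fell, in the same order. Their median log2 changes were 0.81 and 0.90. Perp, a membrane protein of cell junctions, rose by 6.76-fold in Rb null cells (2231 against 325 untreated) and by 5.28-fold in wildtype cells (839 against 153). Pmaip1, which encodes the BH3-only protein Noxa, rose by 5.53-fold in Rb null cells (4265 against 760), and Trp53inp1, a stress protein of the autophagy pathway, by 3.93-fold in wildtype cells (3548 against 898). In the other genotype both were also higher with cisplatin. Pmaip1 averaged 3232 against 1730 in wildtype cells, and Trp53inp1 5019 against 1352 in Rb null cells. Between genotypes, 4 were higher in Rb null cells after cisplatin, such as the death receptor Fas (665 against 229), and 0 lower. Of all genes 9.71% were higher and 13.3% lower there. Untreated, 5 were higher, such as Siva1 (4507 against 2014), and 1 lower, Pmaip1 (760 against 1730), beside 8.09% and 5.04% of all genes.

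Of 18 tested p53 targets of repair, metabolism and signalling, 11 rose with cisplatin in Rb null cells and 10 in wildtype cells, and 0 fell, beside the same shares of all genes, with medians of 0.85 and 0.81. Tap1, a subunit of the peptide transporter for antigen presentation, rose by 4.77-fold in Rb null cells (1356 against 276), and Fbxw7, a ubiquitin ligase subunit that targets cyclin E, by 4.55-fold (1661 against 357). In wildtype cells Tap1 averaged 536 with cisplatin against 146 untreated, and Fbxw7 742 against 384. Dcxr, a reductase of sugars, rose by 4.95-fold in wildtype cells (3976 against 796), and Pltp, a phospholipid transfer protein, by 4.50-fold (1123 against 242). In Rb null cells Dcxr averaged 5017 with cisplatin against 1532 untreated, and Pltp 2252 against 587. After cisplatin 8 of the 18 were higher in Rb null than in wildtype cells and 0 lower, beside 9.71% and 13.3% of all genes. Untreated, 5 were higher and 0 lower, beside 8.09% and 5.04% of all genes. Pcna, the sliding clamp of DNA polymerases and a target of E2F as well as of p53, led these at 7897 against 3308.

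Family relatives of the members were called in both directions. Of 14 tested, 5 rose and 4 fell with cisplatin in Rb null cells, where 16.6% of all genes rose and 20.3% fell. In wildtype cells 4 rose and 2 fell, where 14.8% of all genes rose and 12.7% fell, and the medians of the list were 0.06 in Rb null and 0.18 in wildtype cells. Tob1 and Btg1, relatives of Btg2, were among those that rose: Tob1 read 2385 against 528 in Rb null cells and 1612 against 541 in wildtype cells, and Btg1 4850 against 1742 in wildtype cells. In Rb null cells Btg1 averaged 5266 against 2048 untreated. Ccng2, the relative of Ccng1, rose by 2.60-fold in Rb null cells (928 against 350), and averaged 957 against 440 in wildtype cells. Of the relatives of Cdkn1a, Cdkn1c, the gene of p57, fell by 2.14-fold in Rb null cells (195 against 430) and by 4.68-fold in wildtype cells (107 against 530). Cdkn1b, the gene of p27, fell by 3.33-fold in Rb null cells (150 against 524) and was not called in wildtype cells (312 against 302, adjusted p = 0.744). After cisplatin Cdkn1b was 2.01-fold lower in Rb null than in wildtype cells (150 against 312), and untreated it was 1.71-fold higher (524 against 302). Gadd45g, a relative of Gadd45a, fell by 2.88-fold in wildtype cells (849 against 2477), and averaged 937 against 1803 untreated in Rb null cells. Sesn3 was 1.90-fold lower in Rb null than in wildtype cells after cisplatin (153 against 298). Each gene called in these lists and named here had an adjusted p of at most 0.000359 (limma) in the comparison given. Averages added for the other genotype are given without a test.

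**Figure D4:**
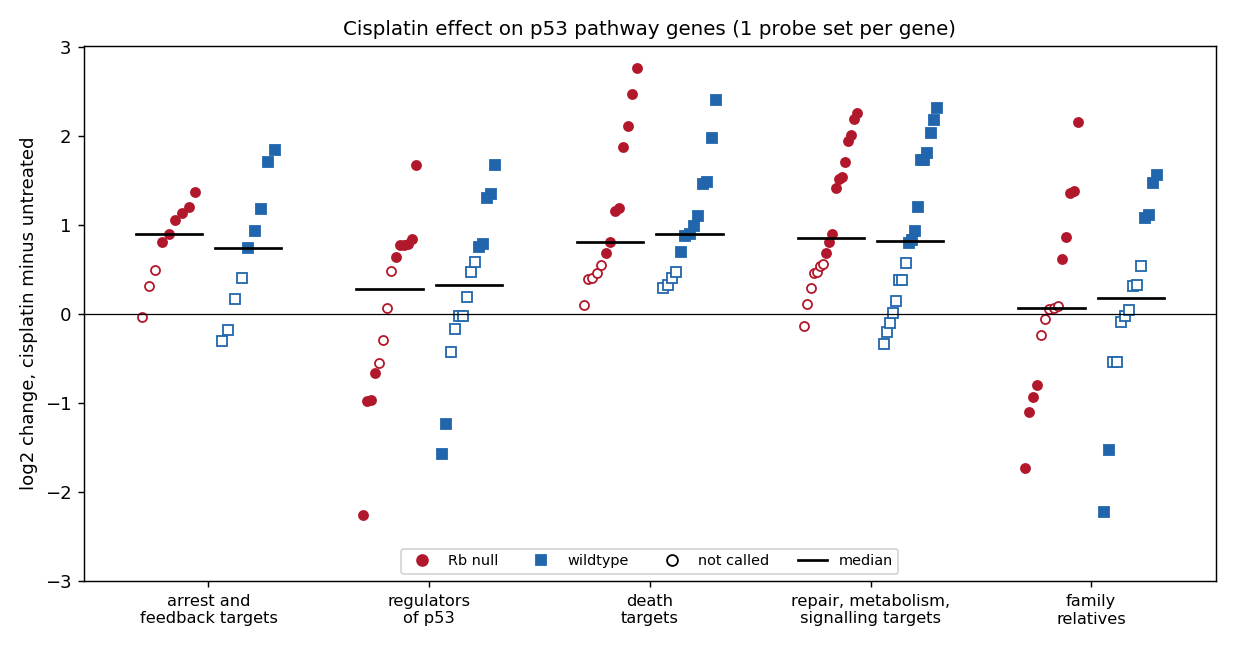
Log2 change with cisplatin for each tested gene of 5 lists, in Rb null (circles) and in wildtype cells (squares), with open symbols for genes not called and a line at the median of the list. The median of the members lies at 0.89 in Rb null and 0.74 in wildtype cells, near those of both other target lists (0.81 and 0.90 for cell death, 0.85 and 0.81 for repair, metabolism and signalling) and above the family relatives (0.06 and 0.18).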

How the data were processed

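Total RNA of 4 samples was hybridized to 12 Affymetrix arrays, 3 per sample. The authors deposited linear signal intensities, 1 per probe set and array, made with MAS5 per the submitters' processing notes; its version, scaling target and detection calls are not given in the sources used here. The trimmed mean (2% at each end) was 500.1 to 500.2 on all arrays, so they were used as scaled. From these, log2(signal + 10.4) was computed, 10.4 being the 10th percentile of all values, which understates folds of weak genes. The 64 control probe sets and the 40% with the lowest mean were left out. limma 3.58.1 (R 4.3.3) fitted a mean per group to the 12 arrays together (variance trend, 8 residual and 6.09 prior degrees of freedom, two-sided) and tested on simulated data. A gene's representative is its brightest probe set, with those ending in _x_at, _f_at, _r_at, _i_at or _g_at used only where there was no other and those ending in _s_at allowed, as for Sesn1. Platform annotation named 20393 probe sets with 1 symbol and 691 with several; 1606 are without an entry.

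All members are named, with every probe set of theirs. From other lists the called genes with the largest change were named, up to 2 higher and 2 lower per comparison. For likeness the 3 genes of highest r were named, with provisional symbols left out. A selection is given. The members and lists were chosen with earlier results of these data known. Alternatives were pseudocounts of 1 and 45.8, no filter and a 60% filter, quantile normalization, median centring, a replicate block, no trend, fits of only the groups compared, other fold minimums, every probe set, each array left out and no untreated wildtype group. The number of arrays limits the precision. Gene positions are from RefSeq on GRCm38.p6; the build behind the probe annotation is not given in the sources used here.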

Additional observations from a re-analysis of the deposited data

Results flagged for a closer look

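For 3 members the test of the difference itself called the response to cisplatin different between Rb null and wildtype cells, against the spread between arrays of 1 RNA sample per group. Gadd45a differed by 1.44 (log2, Rb null minus wildtype effect, adjusted p = 0.000366 by limma), with a rise of 1.13 in Rb null cells beside -0.31 in wildtype cells. Sesn1 differed by 0.73 (adjusted p = 0.00146), with 0.89 in Rb null beside 0.16 in wildtype cells. Sesn2 differed by -0.62 (adjusted p = 0.0107), with 0.31 in Rb null beside 0.93 in wildtype cells, and its other probe set gave 0.08. The Sesn2 call was lost with the pseudocount of 45.8 (-0.57), after quantile normalization (-0.54), after median centring (-0.52), and without untreated Rb null array 3 (-0.58), untreated wildtype array 1 (-0.49) or cisplatin Rb null array a (-0.50). All 3 values rest on the untreated wildtype sample, and 23.7% of all genes differed by the same rule.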

How the results depend on the processing

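Over all probe sets, 3002 were called for Rb null against wildtype after cisplatin, 1678 for the same untreated, 4982 for cisplatin in Rb null cells, 3626 for cisplatin in wildtype cells and 3132 for the difference. With a 60% filter, which tests fewer probe sets, these were 1906, 1078, 3257, 2297 and 2021. With no fold minimum they were 6968, 4598, 8756, 7413 and 5109, and with a 2-fold minimum 928, 598, 2352, 1581 and 1191. Members called for the genotypes after cisplatin, 2 of 9, were 1 with the 60% filter, which leaves fewer members, 7 with no fold minimum and 1 at 2-fold. On every probe set of a member they were 3, with Cdkn1a added as lower in Rb null cells. For the genotypes untreated, 2 became 1 after median centring, 6 with no fold minimum, 0 at 2-fold, 1 on the next brightest probe set (chosen after seeing the data) and 1 to 2 with single arrays left out. For cisplatin in Rb null cells 6 became 4 at 2-fold, 5 with the 60% filter and 7 after median centring. They became 8 with no fold minimum, on every probe set and on the next brightest one. For cisplatin in wildtype cells 5 became 3 at 2-fold, 7 with no fold minimum and 6 on every probe set. For the difference 3 became 1 at 2-fold, and 4 with no fold minimum or on every probe set. They became 2 with the pseudocount of 45.8, the 60% filter, quantile normalization or median centring, and 2 to 4 with single arrays left out. The signs that turned were those of Zmat3 with cisplatin in Rb null cells (0.11 after median centring), and of the differences of Cdkn1a and Ccng1 (-0.15 and -0.15 after quantile normalization). On the next brightest probe set, Cdkn1a turned to -0.63 for the genotypes after cisplatin and -0.89 for the difference, and Sesn2 to 0.36 and 0.076. With single arrays left out, the genotype difference of Btg2 after cisplatin ran between -0.053 and 0.25, below 0 without cisplatin Rb null array b, and the difference of Mdm2 between -0.26 and 0.023, above 0 without cisplatin Rb null array a. The cause was not tested. With the replicate block (correlation -0.01) the members called were 2, 2, 6, 5 and 3, and all 45 member values kept sign and call. Same-numbered arrays had deviations correlated between -0.186 and 0.109, and differently numbered ones between -0.21 and 0.3. With 3 arrays per group these values cannot decide whether the numbers pair arrays. The difference has no value with only the groups compared, since it uses all 4. No detection calls were at hand to say which weak signals (Gadd45a, 2 Sesn1 probe sets) exceed background.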
